A study of Homo sapiens with 12 samples.

Results

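The 35 genes described here encode aminoacyl-tRNA synthetases, 19 of them cytosolic and 16 mitochondrial, among 32973 genes listed in the UMI tables of the series. They were chosen by name as enzymes of this family. No measured value enters that rule, although the family was picked for description when earlier results of these data were known, and each symbol matched 1 Ensembl identifier. Rows for 34 of them were found in the tables, and UMIs of all 34 were counted in every library. VARS2 had no row and was not analysed here.

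In LAST-seq a T7 promoter is joined to the mRNA at its poly-A end and the molecule is transcribed directly, whereas CEL-seq2 first makes double-stranded cDNA, and both count molecules by a unique molecular identifier (UMI). HEK293T cells, a human embryonic kidney line, were given as 2 LAST-seq and 2 CEL-seq2 libraries of 10 single cells each, beside 1 LAST-seq library of 15-pg aliquots of total RNA and 1 library of HEK293T lysate per assay. By their titles, the 2 cell libraries of each assay differed in the spike-in RNA mix added. eHAP1, a haploid human line, was given as WT cells and as cells carrying a knockout of SCC4 (gene MAU2), the cohesin loader subunit, made by CRISPR editing and clonal expansion of sorted single cells. Per the study's methods, haploid cells were cultured upon subcloning with the compound 10-Deacetylbaccatin-III to keep them haploid. Each genotype was 1 sample whose cells came from 2 batches, so no batch is an independent clone or culture by its label.

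Aminoacyl-tRNA synthetases join each amino acid to its tRNAs. Human cells use one set of enzymes in the cytosol and another, also encoded in the nucleus, in mitochondria, while GARS1 and KARS1 each serve both. Several cytosolic enzymes assemble with the scaffold proteins AIMP1, AIMP2 and EEF1E1 into the multisynthetase complex, and many genes for cytosolic synthetases are known targets of ATF4, the transcription factor of the amino acid response.

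Because ATF4 and its partners of the C/EBP family bind a composite element, the promoters of the members were searched for TGATGNAA on both strands. The RefSeq promoters of build GRCh38.p14 run from 250 bases before to 50 bases after an annotated start. They covered 30 members, all but LARS1, VARS1, YARS1, AARS2 and VARS2. The letters were found for 7 of the 16 cytosolic members covered and 1 of the 14 mitochondrial ones. Among all genes covered, 4.46% had at least 1 such promoter, as did 3.62% of all 35116 promoters. All 7 cytosolic genes were among the 10 covered genes that had been listed as ATF4 targets, and none of the 6 other cytosolic members held the letters. A match is a string of letters and no evidence of binding. Windows of 30 bases are printed for the 2 members called in the knockout and for 4 that are taken up below, read on the strand of the gene, with the match in capitals.
GARS1, chr7:30594834-30594863, plus strand: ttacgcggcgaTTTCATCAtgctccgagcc
MARS1, chr12:57488053-57488082, plus strand: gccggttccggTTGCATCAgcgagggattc
AARS1, chr16:70289675-70289704, minus strand: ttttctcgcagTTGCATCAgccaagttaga
IARS1, chr9:92293692-92293721, minus strand: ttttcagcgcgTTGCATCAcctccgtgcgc
NARS1, chr18:57621804-57621833, minus strand: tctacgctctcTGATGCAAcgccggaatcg
TARS1, chr5:33440956-33440985, plus strand: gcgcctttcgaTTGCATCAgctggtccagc
All but NARS1 show the letters as their reverse complement. In MARS1, IARS1, NARS1 and TARS1 the match began within 14 bases of the annotated start, as in CARS1, and in YARS2, the remaining gene with a match, 197 bases before it.

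The LAST-seq HEK293T cells held between 82596 and 190557 UMIs on genes, the CEL-seq2 cells between 80558 and 195438, the 148 WT eHAP1 cells between 18022 and 926415 and the 153 SCC4 KO cells between 44979 and 320432. Levels are given as CPM, which are UMI counts scaled to a total of 1000000 on genes with spike-ins left out. The targeted gene MAU2 fell from 44.2 and 41.2 CPM in the WT batches to 9.17 and 14.5 in the KO batches. For the members, the eHAP1 batches agreed closely. Their median squared difference over the counting variance was 0.540 in WT and 0.145 in KO cells, compared with 1.22 between the HEK293T LAST-seq libraries. Over all genes compared, the medians were 1.25 in WT, 0.992 in KO and 2.23 in HEK293T cells. The means over all genes were larger, at 6.11, 5.04 and 7.89. The study used ComBat-seq to remove batch effects, and whether the deposited UMIs precede that step is not given in the sources used here, so the agreement between batches may not measure the spread between independent samples. The cell barcodes, which are reused between plates, were shared for 70 to 75 cells of any pair of eHAP1 batches. Of the 3 markers listed for HEK293T, PAX2 went against its list, with 0 and 1.32 CPM in the HEK293T LAST-seq libraries and 14.9 to 27.0 in eHAP1 batches. NEFL was at 29.5 and 9.94 in HEK293T cells, at 0 in WT cells and at 7.93 and 14.5 in KO cells, and NEFM was at 0 in LAST-seq HEK293T and WT eHAP1 cells. The blood cell markers PTPRC, GATA1 and SPI1 were at 0 in all eHAP1 batches, and CD34 was at 0 in WT, at 1.09 and 0.942 in KO and at 5.61 and 7.29 in LAST-seq HEK293T cells.

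Shares are of the UMIs on genes, with spike-ins left out. In HEK293T cells by LAST-seq, the cytosolic members together took 0.245% and 0.265% of the UMIs in the 2 libraries, and the mitochondrial members 0.0565% and 0.0547%. In the WT eHAP1 batches these shares were 0.158% and 0.159% for the cytosolic and 0.0323% and 0.0333% for the mitochondrial members. Both sets therefore took a lower share in eHAP1 than in HEK293T cells, and the groups did not overlap. In the SCC4 KO batches, the cytosolic share was 0.177% and 0.174% and the mitochondrial share 0.0325% and 0.0356%. The summed cytosolic share was above WT in both KO batches, whereas the mitochondrial shares of KO and WT overlapped. Not every cytosolic member rose, as FARSA, KARS1, MARS1 and TARS1 had lower mean CPM in KO than in WT cells. Exact 95% intervals, which cover counting error only, ran from 0.155 to 0.161% for the cytosolic share of WT batch 1 and from 0.174 to 0.180% for that of KO batch 1. The cytosolic members had 4.77 to 4.89 times the UMIs of the mitochondrial ones in WT, 4.89 to 5.44 times in KO and 4.34 to 4.85 times in HEK293T cells. In the same libraries, RNAs of the mitochondrial genome took 14.3% and 16.6% of the UMIs in HEK293T cells and 20.8% to 21.2% in eHAP1 batches, and their part in these shares was not tested. Outside the mitochondrial genome, the mean cytosolic share was 0.302% in HEK293T, 0.20% in WT and 0.222% in KO cells.

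**Figure D1:**
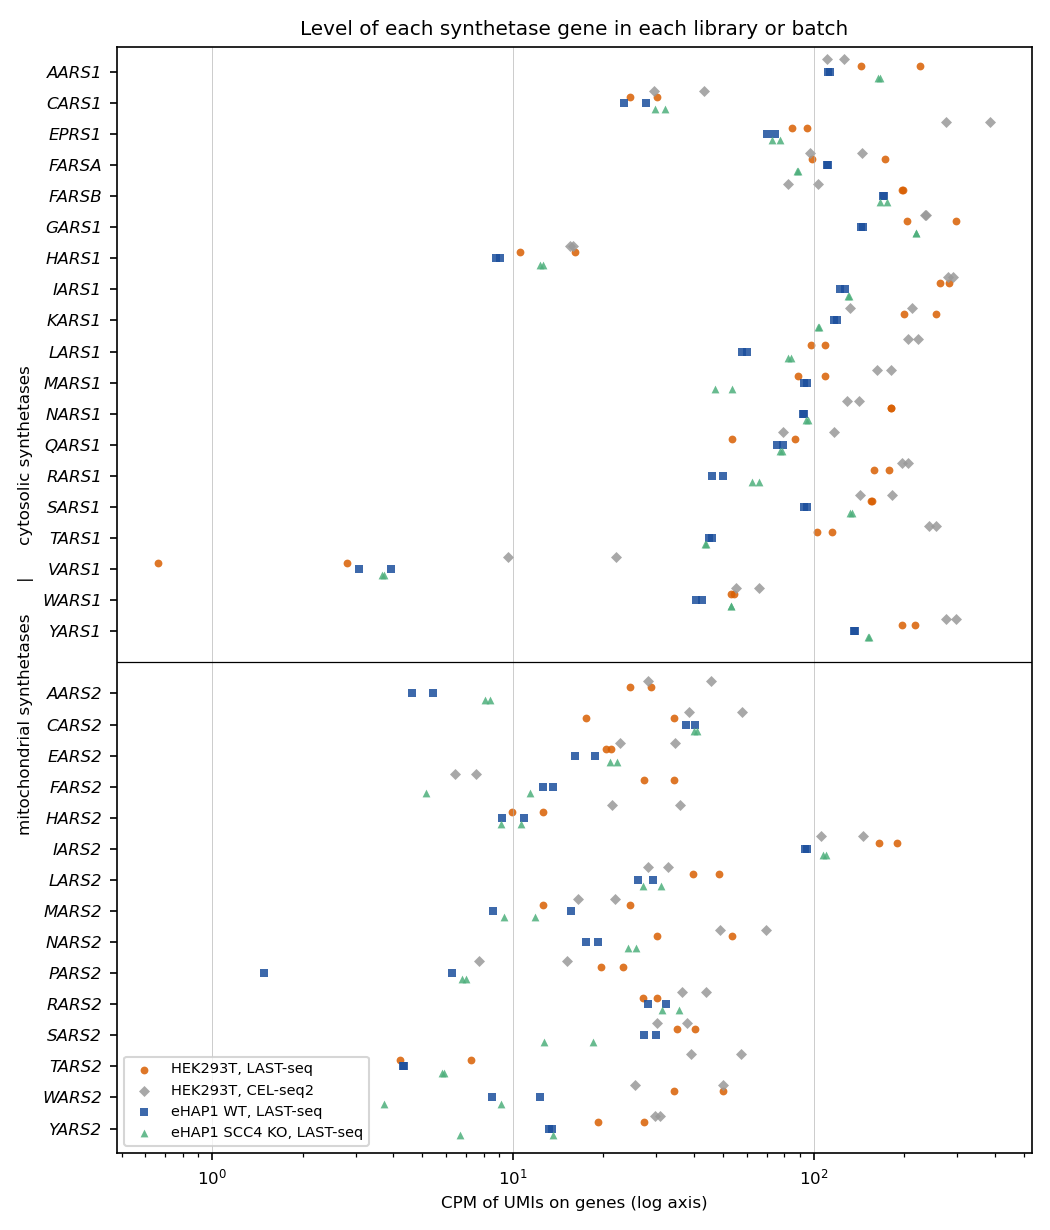
Level of the 34 measured synthetase genes in CPM (UMI counts, log axis), with 1 point for each library or eHAP1 batch, cytosolic genes above the line and mitochondrial genes below it. WT eHAP1 batches (squares) lie close together for most genes, MARS1 is lower in both SCC4 KO batches (triangles), and AARS2 is near 5 in WT batches and above 24 in the HEK293T LAST-seq libraries (circles).

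Among cytosolic members, the mean level in WT eHAP1 cells ran from 3.51 CPM for VARS1, the valyl-tRNA synthetase, to 171 for FARSB, the β subunit of the phenylalanyl-tRNA synthetase, with a median of 92.6. Among mitochondrial members it ran from 3.88 for PARS2 to 94.1 for IARS2, with a median of 13.3. IARS2, the mitochondrial isoleucyl-tRNA synthetase, was the mitochondrial member with the highest CPM in every group of libraries. VARS1 had 5 UMIs over both HEK293T LAST-seq libraries. As UMIs were not divided by gene length and the priming site need not be equally efficient, values are compared below between samples and not between genes.

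The comparison of SCC4 KO with WT cells asks whether loss of the cohesin loader goes with a change of these genes. A gene was called where the lowest batch of one genotype was at least 1.5 times the highest batch of the other, which is a rule of size and no test. GARS1 was called higher and MARS1 lower, and none of the 15 mitochondrial members tested was called. These 1 higher and 1 lower of 34 members compare with 11.0% higher and 8.14% lower among the 16668 genes tested. Synthetase genes were thus called no more often than genes in general. The median log2 fold (KO over WT) was 0.08 for the cytosolic and 0.07 for the mitochondrial members, beside 0.04 for all genes tested. By batch number, 18 members were higher in KO in both pairs of batches, 8 lower in both and 8 of opposite sign. This count was not made for all genes, of which 52.8% had a log2 fold of the means above 0. It therefore gives no lean of the family against other genes.

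GARS1, the glycyl-tRNA synthetase of both compartments (chromosome 7, 30580533 to 30634033, GRCh38), had 144 and 146 CPM in the WT batches and 219 and 219 in the KO batches. Every KO batch was above every WT batch, by 1.51-fold in the means. Between the nearest batches the ratio only just exceeded 1.5. GARS1 sits at the edge of the rule, and AARS1, the cytosolic alanyl-tRNA synthetase, lay just outside it. AARS1 had 112 and 114 CPM in WT and 166 and 164 in KO batches, 1.46-fold in the means and 1.44-fold between the nearest batches. With TMM scaling or DESeq2 size factors, neither was called. The cells overlapped for both genes: GARS1 ran from 43.2 to 273 per cell in WT batch 1 (median 133) and from 101 to 355 in KO batch 1 (median 217).

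MARS1, the cytosolic methionyl-tRNA synthetase (chromosome 12, 57475445 to 57517569, GRCh38), had 93.1 and 95.3 CPM in WT and 53.6 and 47.1 in KO batches. Both KO batches were below both WT batches, at 0.535 of the WT mean, a log2 fold of -0.90. MARS1 was called lower under both other scalings too. Its exons share 355 bases with DDIT3 and 519 with ARHGAP9, both on the opposite strand, and the strand setting of the counting is not given in the sources used here. DDIT3 had 16.1 and 9.59 CPM in WT and 15.1 and 14.7 in KO batches, so its genotypes overlapped. Whether reads of these genes entered the MARS1 counts was not tested. GARS1 and MARS1, which moved in opposite directions, both hold the TGATGNAA letters printed above.

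The largest log2 folds in size after that of MARS1 were of mitochondrial members, at -0.88 for SARS2 and 0.83 for PARS2. Both were larger in size than the 0.60 of GARS1. None of the mitochondrial members was called, and those given here had fewer UMIs than GARS1 or MARS1. SARS2, the mitochondrial seryl-tRNA synthetase, had 27.3 and 30.0 CPM in WT and 12.7 and 18.4 in KO batches, at 0.544 of the WT mean and with 1.48-fold between the nearest batches. SARS2 shares 1492 exonic bases with a gene on the same strand, so its reads may be divided between them. WARS2, the tryptophanyl enzyme, had 8.55 and 12.4 in WT and 3.73 and 9.16 in KO batches, and the genotypes overlapped. PARS2, the prolyl enzyme, had 1.49 and 6.26 in WT and 6.99 and 6.76 in KO batches, so the difference rested on WT batch 1. AARS2, the mitochondrial alanyl enzyme, had 5.43 and 4.63 in WT and 8.08 and 8.39 in KO batches, with 1.49-fold between the nearest. In PARS2, 9 of 73 cells of WT batch 1 and 46 of 75 cells of WT batch 2 had a UMI, with median depths of 89978 and 143882 UMIs. FARS2 and YARS2, the phenylalanyl and tyrosyl enzymes, were low in KO batch 1 alone, at 5.13 and 6.68 CPM beside 11.4 and 13.6 in KO batch 2.

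**Figure D2:**
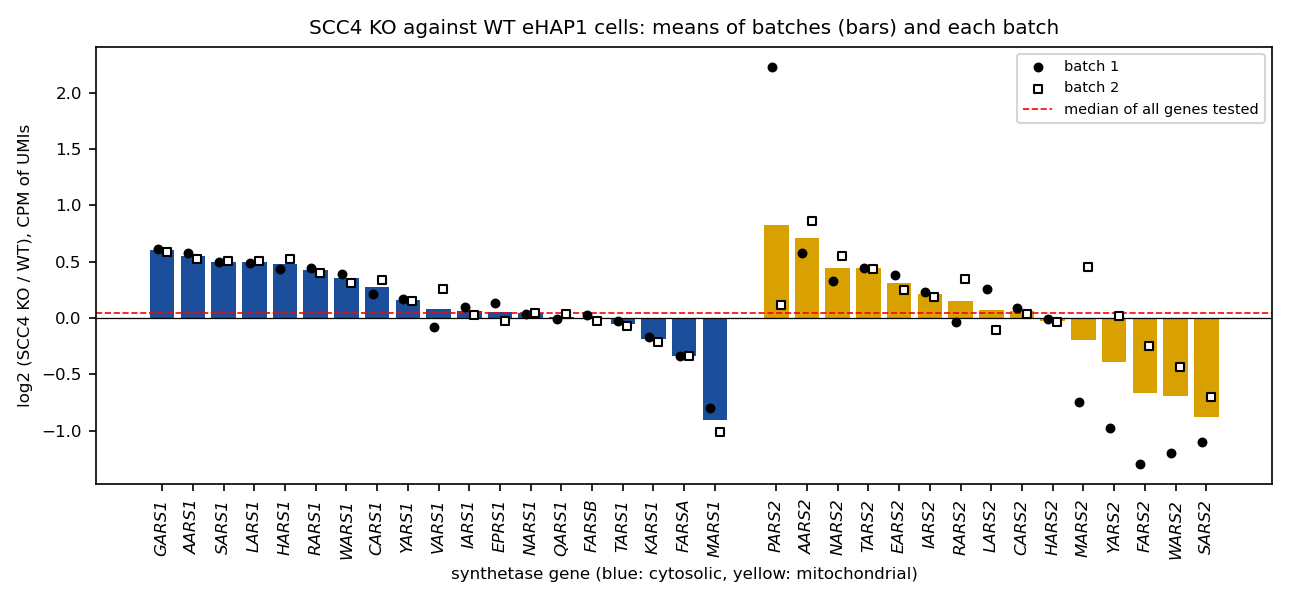
log2 fold of SCC4 KO over WT eHAP1 cells for each synthetase gene: bars are ratios of the means of 2 batches, circles and squares the ratios within batch 1 and batch 2, and the dashed line the median of all genes tested (0.04). Cytosolic genes (blue) show close batches, with GARS1 highest at 0.60 and MARS1 lowest at -0.90, whereas PARS2, MARS2, YARS2, FARS2 and WARS2 (yellow) differ between batches.

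The cytosolic synthetases listed as ATF4 targets had a median log2 fold of 0.21, and 10 of 12 were above 0, with GARS1 called higher and MARS1 lower. The 7 other cytosolic members had a median of 0.01, with 5 above 0 and none called. Among all genes, 52.8% were above 0. In the target list, SARS1 (seryl) and LARS1 (leucyl) had 1.41-fold higher CPM in KO cells, WARS1 (tryptophanyl) 1.28-fold and CARS1 (cysteinyl) 1.21-fold. IARS1, NARS1, EPRS1 and TARS1, which charge isoleucine, asparagine, glutamate with proline, and threonine, lay between 0.964-fold and 1.05-fold, and YARS1 (tyrosyl) at 1.11-fold. Outside the list, RARS1 (arginyl) was at 1.34-fold and HARS1 (histidyl) at 1.39-fold, whereas FARSA, the α subunit for phenylalanine, was at 0.793-fold and KARS1 (lysyl) at 0.876-fold. QARS1 (glutaminyl) was at 1.01-fold and VARS1 at 1.06-fold, and FARSB had 172 and 170 CPM in WT and 175 and 167 in KO batches. Among the other mitochondrial members, NARS2, TARS2, EARS2, IARS2, RARS2, LARS2 and CARS2 lay between 1.04-fold and 1.36-fold, HARS2 at 0.984-fold and MARS2 at 0.873-fold.

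The same values side by side for ATF4 and 12 other genes it is known to induce gave 2 called higher and 3 lower of 13, beside 11.0% higher and 8.14% lower among all genes. ATF4 mRNA rose from 180 and 183 CPM in WT to 329 and 329 in KO batches, and ATF5, a related factor, was 2.46-fold higher. CHAC1, DDIT4 and TRIB3, targets of the stress response, were lower, at 0.415, 0.356 and 0.510 of the WT mean. The list as a whole therefore had no common direction, with 7 members above 0 and 6 below. Among the scaffolds of the multisynthetase complex, EEF1E1 was at 0.738 of WT, AIMP1 at 1.21-fold, and AIMP2 had 2.40 CPM or fewer in every eHAP1 batch, and none was called. The 7 synthetases of the complex had a median log2 fold of 0.05, with 5 above 0 and MARS1 called lower. GATB, GATC, QRSL1 and MTFMT, which complete glutaminyl- and formylmethionyl-tRNA in mitochondria, were all above 0 with a median of 0.25, and none was called.

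As an alternative to the rule of size, edgeR's quasi-likelihood test on the batch sums with Benjamini-Hochberg adjustment over all genes called 6 members higher (AARS1, GARS1, LARS1, RARS1, SARS1 and WARS1) and 4 lower (FARSA, KARS1, MARS1 and SARS2). The adjusted p was 0.000328 for GARS1 and 5.33e-05 for MARS1. The test called 27.8% of all genes, close to the 10 of 34 members. Since the batches may have been adjusted and each genotype is 1 clone or line, these p-values measure the spread between batches only.

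The comparison of HEK293T with WT eHAP1 cells gives the level of the family in a second line measured by LAST-seq. The lines were grown in different media and pooled in separate libraries. Culture with the compound that keeps cells haploid was described for eHAP1 only. The eHAP1 cells were sorted for haploid G1 phase within narrow limits of size and DNA content, whereas HEK293T cells were sorted for viability. Cell cycle phase, culture and its compound, line and experiment therefore cannot be told apart. Of 34 members, 13 were called higher in HEK293T and none lower, compared with 19.9% higher and 12.5% lower among the 18043 genes tested. The median log2 fold (HEK293T over eHAP1) was 0.60 for the 19 cytosolic and 0.67 for the 15 mitochondrial members, beside 0.23 for all genes. TMM scaling moved the median of all genes by -0.27 and DESeq2 size factors by -0.22. With TMM, 13.5% of genes were called higher and 16.6% lower, and with DESeq2 size factors 14.2% and 15.9%. Under either, 8 members were called higher, namely IARS1, NARS1, RARS1, TARS1, AARS2, FARS2, PARS2 and WARS2, and none lower. Scaling shifts members and all genes by nearly the same amount, so the distance of the members from the median of all genes is not tested by it.

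Among cytosolic members, RARS1 had the largest fold. It had 159 and 178 CPM in the HEK293T libraries and 45.9 and 49.8 in the WT batches, 3.53-fold in the means. TARS1 had 102 and 115 in HEK293T and 44.9 and 46.0 in eHAP1 cells, 2.39-fold. IARS1 had 262 and 282 against 122 and 128, 2.18-fold. All 3 also passed a 2-fold rule. NARS1 had 180 and 181 CPM in HEK293T and 93.2 and 92.0 in eHAP1 cells, and KARS1 256 and 199 against 117 and 120. LARS1 had 109 and 98.0 against 60.1 and 57.9, and SARS1 156 and 157 against 95.2 and 93.2. These 4 were between 1.66-fold and 1.95-fold higher, and KARS1, LARS1 and SARS1 were called under scaling to total UMIs but not under the other scalings. RARS1, IARS1, KARS1 and LARS1 belong to the multisynthetase complex, whose 7 listed synthetases had a median log2 fold of 0.81.

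Among mitochondrial members, PARS2 and AARS2 had the largest folds. PARS2 had 19.7 and 23.2 CPM in HEK293T and 1.49 and 6.26 in eHAP1 cells, 5.53-fold, with 3.14-fold between the nearest libraries. AARS2 had 28.8 and 24.5 against 5.43 and 4.63, 5.30-fold. WARS2 had 49.8 and 34.4 against 8.55 and 12.4, 4.03-fold. These groups stood well apart although the eHAP1 levels rested on few UMIs per cell. FARS2 had 27.4 and 34.4 CPM in HEK293T and 12.6 and 13.6 in eHAP1 cells, NARS2 30.2 and 53.6 against 19.3 and 17.5, and IARS2 189 and 165 against 93.5 and 94.8. NARS2 and IARS2, the asparaginyl and isoleucyl enzymes, were not called under the other scalings. LARS2, MARS2 and YARS2, for leucine, methionine and tyrosine, had 1.53-fold to 1.75-fold higher CPM in HEK293T cells without being called. TARS2, SARS2, EARS2 and HARS2, for threonine, serine, glutamate and histidine, were between 1.12-fold and 1.33-fold, RARS2 (arginyl) at 0.949-fold and CARS2 (cysteinyl) at 0.667-fold with libraries at 17.5 and 34.4 against 37.7 and 40.2. Of the cytosolic members that were not called, GARS1, AARS1, YARS1 and HARS1 lay between 1.5-fold and 1.73-fold, and WARS1, EPRS1, FARSA, FARSB, CARS1, MARS1 and QARS1 between 0.908-fold and 1.29-fold. VARS1 had 5 UMIs in HEK293T and 67 in eHAP1 cells, a ratio of 0.500 after scaling with an exact 95% interval from 0.157 to 1.23. Scaled to total UMIs, the 12 listed ATF4-target synthetases were above 0, as were 55.5% of all genes, and 10 of them were above the median of all genes. Their median log2 fold was 0.72 and 5 were called higher, beside 19.9% of all genes, whereas under either other scaling only IARS1, NARS1 and TARS1 of the list were called. The 7 other cytosolic members had 5 above 0, 2 called and a median of 0.29. edgeR's quasi-likelihood test called 10 members higher and none lower, with 1 lower at an unadjusted p under 0.05, and 22.3% of all genes in either direction. DESeq2 called 10 higher and none lower, with none lower at an unadjusted p under 0.05, and 20.7% of all genes in either direction.

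The comparison of assays in HEK293T cells sets levels by LAST-seq beside those by CEL-seq2. The cells of each assay were separate libraries, so assay and experiment cannot be told apart. RNAs of the mitochondrial genome took 16.6% and 14.3% of the UMIs by LAST-seq and 7.47% and 9.23% by CEL-seq2. Their part in the folds was not tested. LAST-seq was called higher for 2 members and lower for 6 of 34, compared with 5.37% higher and 17.5% lower among the 22894 genes tested. The median log2 fold (LAST-seq over CEL-seq2) was -0.22 for cytosolic and -0.38 for mitochondrial members, beside -0.38 for all genes. TMM scaling moved the median of all genes by 0.35 and DESeq2 size factors by 0.34, so that 8.97% and 8.87% of genes were called higher and 12.4% and 12.5% lower. The cytosolic median then changed sign, to 0.12 with either, and 5 members were called higher, with AARS1, LARS2 and PARS2 added, and 4 lower, with LARS1 and HARS2 lost.

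FARSB had 197 and 198 CPM by LAST-seq and 82.4 and 104 by CEL-seq2, 2.12-fold higher. FARS2 had 27.4 and 34.4 against 6.43 and 7.56, 4.42-fold higher. FARSB and FARS2 act in different compartments but charge the same amino acid, phenylalanine. FARSA, the other subunit of the cytosolic phenylalanyl enzyme, was not called. Its libraries lay at 99.0 to 173 CPM by LAST-seq and 97.5 to 145 by CEL-seq2, so the assays overlapped. EPRS1, the bifunctional glutamyl-prolyl enzyme of the multisynthetase complex, had 84.9 and 95.4 by LAST-seq and 275 and 387 by CEL-seq2. TARS1 had 102 and 115 against 242 and 256, and LARS1 109 and 98.0 against 207 and 222. For these 3 cytosolic enzymes LAST-seq gave 0.272, 0.437 and 0.483 of the CEL-seq2 level. TARS2 had 4.21 and 7.29 against 57.3 and 39.2, and HARS2 12.6 and 9.94 against 36.0 and 21.3. TARS2 was thus at 0.119 of its CEL-seq2 level, with an exact 95% interval from 0.0677 to 0.198 for counting error. VARS1 rested on 5 UMIs over the LAST-seq and 47 over the CEL-seq2 libraries, a ratio of 0.109 with an interval from 0.0339 to 0.273. In the single lysate libraries, EPRS1, TARS1, TARS2 and VARS1 had 85.2, 41.4, 5.01 and 1.25 CPM by LAST-seq and 309, 203, 29.6 and 14.2 by CEL-seq2, in the same order as in cells, and HARS2 was at 17.5 and 22.5. LARS1 was at 127 by LAST-seq and 116 by CEL-seq2 in lysate, FARSB at 80.2 and 101 and FARS2 at 13.8 and 21.3, in the opposite order to cells. With 1 lysate library per assay, these values have no replicate. edgeR's quasi-likelihood test called FARSB and FARS2 higher and EPRS1 and TARS2 lower, 4 of 34 members beside 13.1% of all genes.

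**Figure D3:**
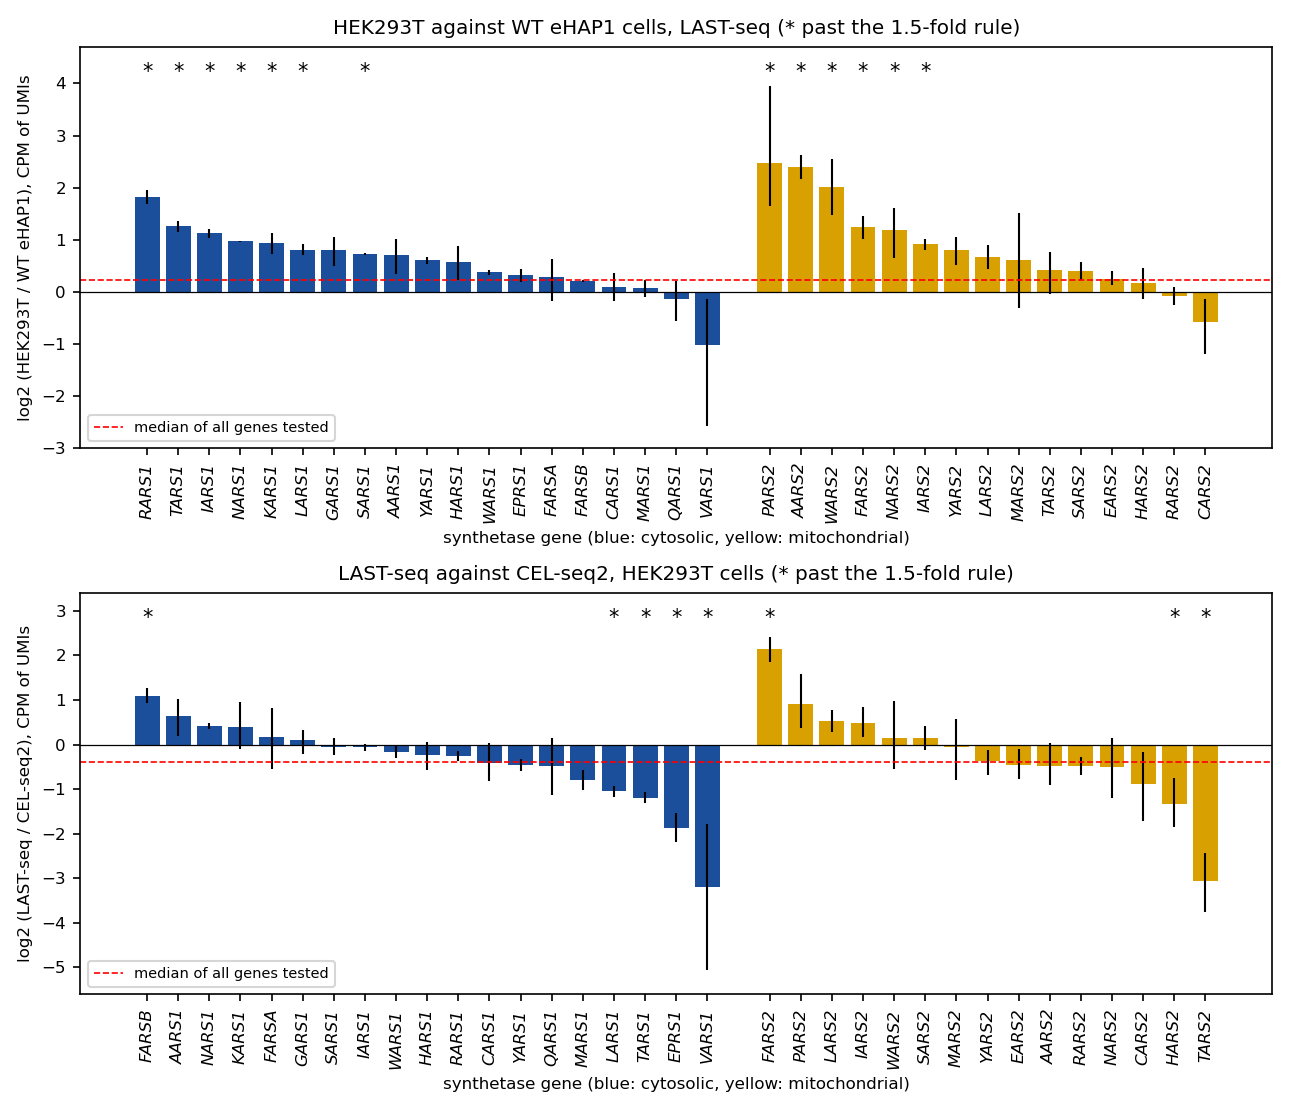
log2 fold of CPM for each synthetase gene, HEK293T over WT eHAP1 cells (top) and LAST-seq over CEL-seq2 in HEK293T cells (bottom): bars are ratios of the means of 2 libraries or batches, lines span the lowest to the highest ratio between single libraries, stars mark genes past the 1.5-fold rule and dashed lines the median of all genes tested (0.23 and -0.38). No gene is past the rule below 0 in the top panel, whereas 6 are in the bottom panel.

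Reads per UMI show how often each molecule was sequenced. Over members of at least 20 UMIs, the median was 5.32 and 4.43 reads per UMI in the LAST-seq HEK293T libraries, beside 4.33 and 4.11 for all such genes, and 2.75 beside 2.41 in CEL-seq2 replicate 1. By these medians, members of at least 20 UMIs were no more shallowly sequenced than other such genes in the same libraries. Single members ran from 2.04 to 8.05 and from 2.67 to 8.27 reads per UMI in the LAST-seq libraries, and from 1.63 to 6.71 in CEL-seq2. Members of fewer UMIs and CEL-seq2 replicate 2 were not examined.

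Coordination between cells was described within each eHAP1 batch by Spearman correlations of levels scaled to the total UMIs of the cell, over genes of at least 2 UMIs per cell on average. Of the cytosolic members, 17 passed in every batch, all but HARS1 and VARS1, and 5 to 10 of the mitochondrial ones. The median correlation over the 136 cytosolic pairs was 0.00469 and 0.0268 in the WT batches (73 and 75 cells) and 0.0217 and 0.0106 in the KO batches (77 and 76 cells). Over all pairs of genes it was 0.000586 to 0.00464. The measured correlations of synthetase genes between cells of a batch therefore had medians close to 0, as did those of genes in general. Whether counting noise hides a correlation at these levels was not tested. For mitochondrial pairs the medians were 0.0446 and -0.0180 in WT and 0.0886 and -0.0188 in KO, positive in the first batch and negative in the second of each genotype. The first batches held 10 pairs of 5 genes each, WT batch 2 held 45 pairs of 10 genes and KO batch 2 held 28 pairs of 8. These medians are therefore not over the same pairs. For pairs of a cytosolic with a mitochondrial gene they lay between -0.0213 and 0.0225. Pairs within the multisynthetase complex had medians of 0.00175 to 0.0480, and pairs of the listed ATF4 targets -0.00707 to 0.0621. In these sparse counts such correlations are no finding, and all pairs in a batch share the depth of its cells.

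Of the 210 pairs among the 21 members that passed in all 4 batches, 20 (9.52%) had a positive correlation in every batch, beside 6.65% of all gene pairs. The mean over batches ran from -0.137 to 0.151 with a median of 0.0150 for members, and 0.00175 for all pairs. The 5th and 95th percentiles were -0.0825 and 0.0992 for members and -0.0960 and 0.0997 for all pairs. The highest pair was FARSB with CARS2, at 0.15 on average and 0.01 to 0.28 between batches. The summed cytosolic level of a cell had a coefficient of variation between 0.0706 and 0.109 in the 4 batches. Its Spearman correlation with the summed mitochondrial level was 0.292 and 0.0716 in WT and -0.136 and 0.0357 in KO batches, and thus had no common sign. The summed level of the ATF4-target synthetases correlated with that of ATF4 and its other targets at 0.121 and 0.209 in WT and 0.0107 and 0.160 in KO batches. With all cells thinned to 50000 UMIs these 4 values were 0.0630, 0.106, -0.00354 and -0.0276.

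**Figure D4:**
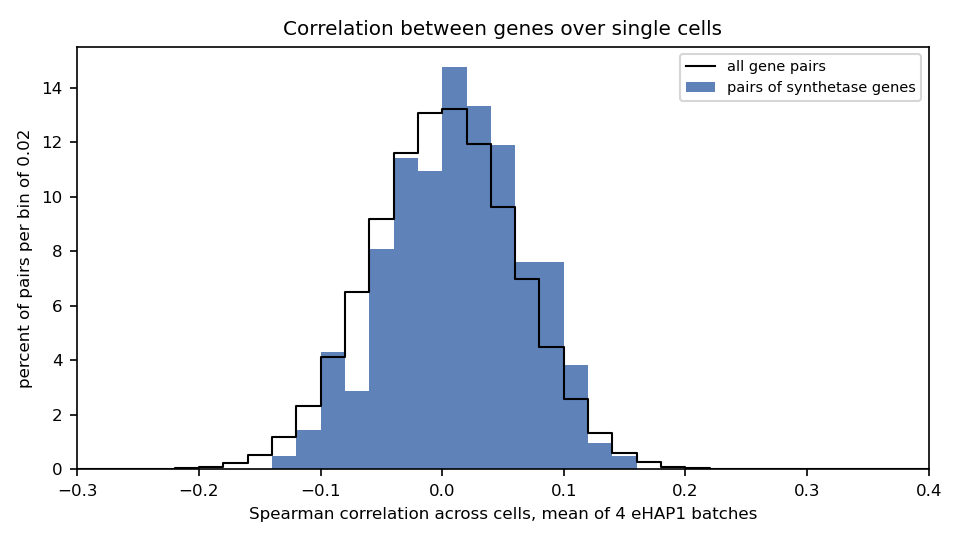
Spearman correlation across single cells, averaged over the 4 eHAP1 batches (horizontal axis), for the 210 pairs of synthetase genes (bars) and all pairs of genes (line), as percent of pairs per bin of 0.02 (vertical axis). Both distributions centre near 0, with medians of 0.0150 and 0.00175.

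Variation between cells was measured by the Fano factor, the variance over the mean, which is 1 for pure counting noise, after thinning each cell to 50000 UMIs. This left out 1 and 2 WT cells and 1 and 0 KO cells by batch. The median over the 15 or 16 cytosolic members of at least 2 UMIs was 1.02 and 1.0 in WT and 1.10 and 1.11 in KO batches, beside 1.10 and 1.09, and 1.12 and 1.09, for all such genes. The members thus varied little more than counting noise at this depth. The highest member value was 1.93, for CARS2 in WT batch 1, and the lowest 0.733, for SARS1 in WT batch 2. CARS2 was not high in every batch, with 1.40 in WT batch 2 and 0.737 in KO batch 2. AARS1 was at 1.64 in KO batch 2 and between 1.16 and 1.23 in the other batches. WARS1 was at 1.54 in WT batch 2, and at 1.58 and 1.33 in the KO batches. In HEK293T wells, with 10 wells per library, the cytosolic median was 0.997 and 0.798 for cells, 1.27 for 15-pg RNA and 0.842 for lysate, and the small number of wells limits the precision of these values.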

How the data were processed

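The authors deposited UMI counts per gene and cell or well, and for 3 libraries used here also read counts. Per the labels and the study's methods, reads were demultiplexed with bcl2fastq 2.20, aligned to GRCh38 with GENCODE annotation through zUMIs, subsampled to an equal depth and counted in exons, and UMIs were collapsed by identity. The deposited counts are whole numbers with no stated scaling, and whether the eHAP1 tables precede batch correction is not given in the sources used here. SMART-seq read tables were not used here. Genes absent from a table were taken as 0 except VARS2, which no table lists.

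UMIs were summed over the cells of each library or eHAP1 batch, which column names give, and divided by the total on genes (CPM). Genes averaging 0.1 UMI or more per cell in at least one group were compared. A gene was called where the nearest libraries of both groups differed by at least 1.5-fold, with fewer than 3 UMIs in a library of the lower group set to 3. With 1 sample per genotype no p-value was the main result. edgeR 4.0.16 and DESeq2 1.42.0 (R 4.3.3) on the sums were alternatives, and were tested on simulated data. Other steps used Python 3.11.15, numpy 2.4.6, pandas 2.3.3 and scipy 1.17.1. Positions and overlaps came from GENCODE on GRCh38.

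All 35 members are named, with full values for those called in a comparison and, where fewer than 5 were called, for the 5 largest absolute log2 folds. The members and lists were chosen with earlier results of these data known.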

Additional observations from a re-analysis of the deposited data

How the results depend on the processing

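Of 147 values recomputed under other settings, 75 moved by less than the spread between libraries or within 1.5 times a count, 70 moved further and 2 changed sign. The spread between eHAP1 batches is small, so small shifts count as moves, and the causes were not tested. In the knockout, where 1 member was higher and 1 lower, the members higher were 0 under TMM, DESeq2 size factors, a 2-fold rule and cells of at least 50000 UMIs, 6 under edgeR with or without a replicate block and 5 under DESeq2. The members lower were 2 under DESeq2 size factors, 0 at 2-fold and 4 under edgeR, edgeR with the replicate block and DESeq2. The block named the same members, and equal batch numbers did not deviate together (r = -0.0155 over 10493 genes). Because the counts may already be adjusted for batch, this value cannot tell whether batches of equal number were processed together. Median depth was lower in both first batches (89978 UMIs in WT and 81789 in KO) than in both second ones (143882 and 152433). The cytosolic and mitochondrial medians were 0.018 and 0.0063 under TMM, 0.029 and 0.017 under DESeq2 size factors, and 0.11 and 0.11 with cells weighted equally. Leaving out a batch gave 1 to 2 members higher, 1 to 5 lower, and medians of 0.068 to 0.15 and 0.056 to 0.14. The 5 lower came without KO batch 2 and added SARS2, FARS2, WARS2 and YARS2, while SARS2 was added without WT batch 1, AARS2 was added as higher without KO batch 1 or WT batch 1, and PARS2 without WT batch 2. For HEK293T against eHAP1, the members higher were 8 under TMM and DESeq2 size factors and 7 at 2-fold. The medians were 0.33 and 0.41 under TMM and 0.38 and 0.45 under DESeq2 size factors. Leaving out a library gave 0 to 1 lower, VARS1 without HEK293T replicate 1 and CARS2 without replicate 2, with medians of 0.50 to 0.63 and 0.53 to 0.81. For LAST-seq against CEL-seq2, the members higher were 5 under TMM and DESeq2 size factors and 1 at 2-fold, and those lower 2 under edgeR and DESeq2. The cytosolic median turned to 0.12 under both scalings, and the mitochondrial one was -0.030 under TMM, -0.036 under DESeq2 size factors and -0.35 with cells weighted equally. Leaving out a library gave 2 to 4 higher and medians of -0.22 to -0.18 and -0.44 to -0.080. Outside the mitochondrial genome, cytosolic shares were 0.302% (HEK293T), 0.20% (WT) and 0.222% (KO), and mitochondrial shares 0.0658%, 0.0414% and 0.0431%. As a median over cells, the cytosolic share of WT was 0.156%. Thinned to 50000 UMIs, the mean correlation was 0.0731 for WT mitochondrial pairs, from 1 pair of genes in each batch (0.0156 and 0.131), and 0.00156 for KO cytosolic pairs, and thinned to 100000 UMIs the cytosolic Fano factors were 1.153 (WT) and 1.169 (KO) as means over batches, where 47 and 65 cells of the first batches were left out. Mitochondrial pairs had no value at 5 UMIs per cell, or for KO when thinned, since 1 batch held fewer than 2 such genes.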
